A study of Mus musculus with 12 samples.

Results

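The 44 genes described here are the collagen genes, taken as every gene of the table whose symbol has the form Col, a type number, the letter a and a chain number. They were chosen by name and not by level, out of 47593 Ensembl genes. RNA was sequenced from 12 mammary tumors of 9 female mice of 1 condition: 7 mice gave 1 tumor each, tumors 3 and 4 came from the same mouse, and so did tumors 10, 11 and 12. The labels give every mouse as untreated, carrying MADM RG;GR alleles on a mixed background. No normal gland or wild-type tumor was analysed here, and ages at collection are not given in the sources used here.

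MADM (mosaic analysis with double markers) makes rare cells lose the remaining normal copies of linked genes through recombination between homologous chromosomes during cell division, while the rest of the animal stays heterozygous. In the study's animals the linked genes are Brca1 (a floxed allele) and p53 (a knockout allele) on the chromosome that carries the MADM cassettes, and Cre is driven by the MMTV promoter, which acts mainly in mammary epithelial cells. The tumors start from green-labelled epithelial cells that lack both genes. Whole pieces of tumor were homogenized, so tumor cells, fibroblasts, vessels and blood cells all contribute to each value.

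Collagens are secreted or membrane-bound proteins in which 3 chains wind into a triple helix. Types I, III and V form the fibrils of connective tissue and are made mostly by fibroblasts, whereas types II, IX and XI are best known from cartilage. Type IV forms the sheet of the basement membrane under epithelia and around vessels, types VII, XV and XVIII lie next to it, type VI forms beaded filaments, and type VIII forms hexagonal networks. In tumors, collagen is a major part of the stroma around the malignant cells.

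Values are TPM, a unit in which the reads of a gene are divided by its length and all genes of a tumor are scaled to add up to about 1000000. TPM can be compared between genes, but it keeps no read numbers, so the depth of each tumor and its counting error are unknown. Errors are SDs over 9 mice, with the tumors of the same mouse averaged. Tumor 2 stood apart from its label: its 6 epithelial markers (Epcam, Cdh1, Krt8, Krt18, Cldn4 and Esrp1) summed to 1.48 TPM and its 5 B lymphocyte markers to 4662 TPM. Tumor 8 had little epithelial RNA, with 152 TPM over the same 6 genes, against 2991 to 7731 TPM in the other 10 tumors. It also had the highest sum of the 8 fibroblast markers, 490 TPM, against 24.9 TPM in tumor 2 and 63.4 to 426 TPM elsewhere. Both tumors were kept. The main test counts and several slopes are also given without them, and values not given so may rest on them.

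All 44 collagen genes had a value above 0 in at least 1 tumor, and 20 of them had 1 TPM or more in all 12. The mean over mice was 1 TPM or more for 35 genes, 10 TPM or more for 26 and 100 TPM or more for 8. Col3a1 led, followed by Col18a1, Col4a1, Col1a2, Col1a1, Col4a2, Col9a3 and Col6a1. The order among these 8 is not firm, because the SD between mice was 0.644 to 1.25 times the mean for each of them. At the other end, Col4a3, Col4a4, Col6a6, Col22a1 and Col26a1 stayed under 1 TPM in every tumor.

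Together the 44 genes took 0.224% ± 0.147 (SD, n = 9 mice) of all TPM. The share was lowest in tumor 2, at 0.0263%, then in tumor 9, at 0.0582%, and highest in tumor 8, at 0.458%, and tumor 4, at 0.432%. Without tumor 2 the mean was 0.248% ± 0.136. In bulk tissue, fewer cells of a kind and less RNA per cell cannot be told apart, and this holds for every level given here. Tumor 2 and tumor 9 also had the lowest sums of TPM over 17 genes for modifying and folding collagen chains, 807 and 1251 TPM, against 1685 to 4942 TPM in the others.

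**Figure D1:**
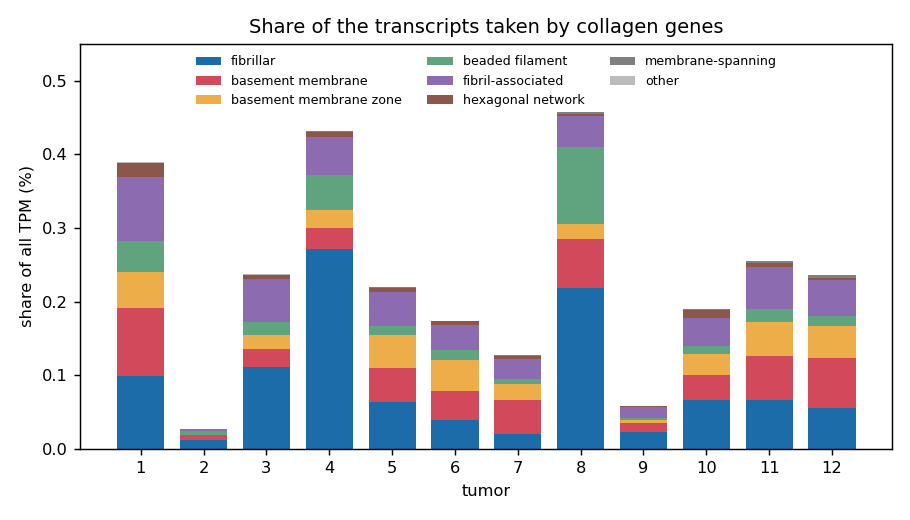
Stacked bars give, for each of the 12 tumors, the percentage of all TPM taken by the collagen genes of each structural class, starting at 0. Tumor 4 is mostly fibrillar collagen (0.272% of all TPM), tumor 8 adds the largest block of beaded filament collagen (0.105%), and tumors 2 and 9 are the lowest.

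The make-up differed between tumors as well as the amount. Fibrillar chains made up 16.2% of collagen TPM in tumor 7 and 62.9% in tumor 4. The 6 type IV chains had the reverse order in these tumors, with 35.8% of collagen TPM in tumor 7 and 6.55% in tumor 4. The most abundant single collagen was Col3a1 in tumors 2, 3 and 4, Col18a1 in tumors 5, 6, 7, 10, 11 and 12, Col4a1 in tumor 1, Col5a3 in tumor 8 and Col9a3 in tumor 9.

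**Figure D2:**
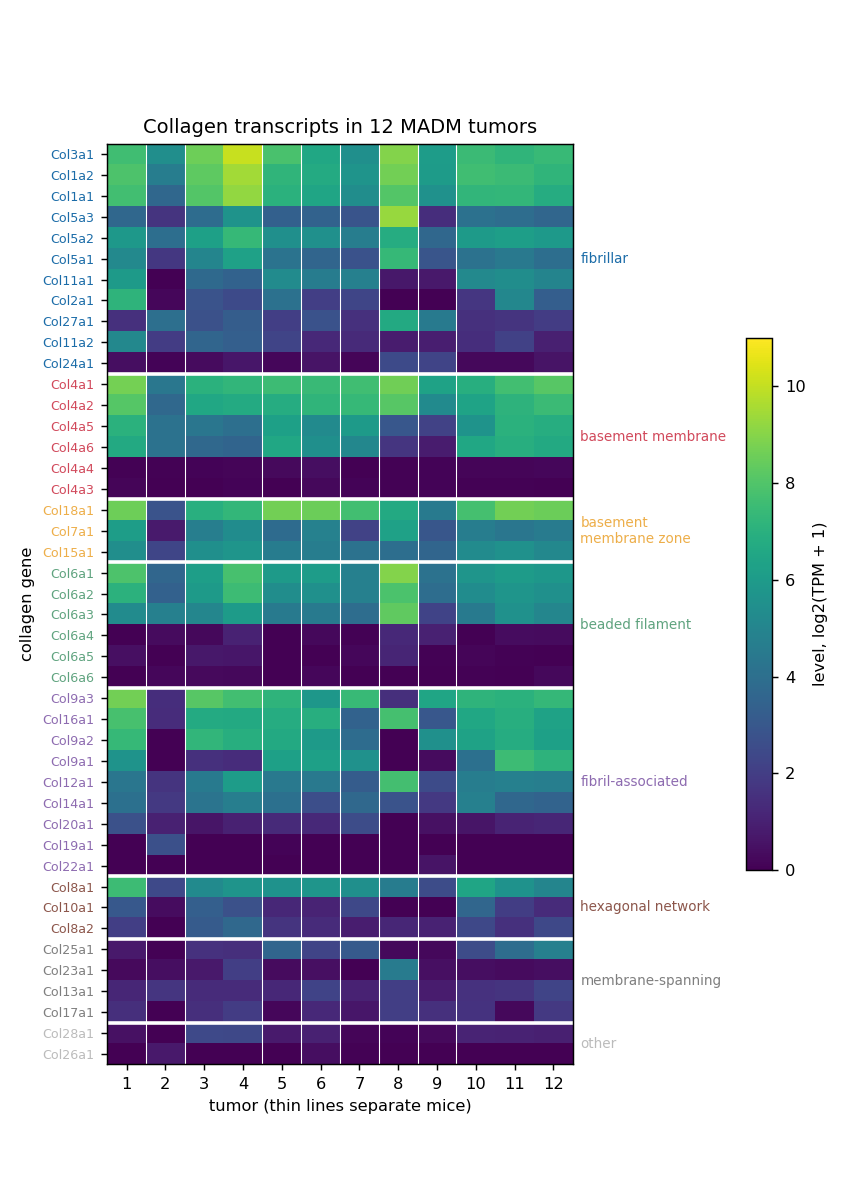
Each row is a collagen gene, grouped by class, each column a tumor, and the colour gives log2(TPM + 1) from 0 to 11. Col1a1, Col1a2, Col3a1, Col4a1 and Col4a2 are bright nearly throughout, tumor 2 is dark in most rows, and tumor 8 is bright for Col5a3 but dark for the type IX chains.

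Type I and type III collagen, the main fibrils of connective tissue, were the leading interstitial collagens. Col3a1 (ENSMUSG00000026043, GRCm38 chromosome 1 from 45311538 to 45349706, plus strand) had 42.9 TPM in tumor 2, 44.2 in tumor 7, 67.6 in tumor 9, 93.5 in tumor 6, 147 in tumor 11, 170 in tumor 12, 182 in tumor 10, 195 in tumor 1, 229 in tumor 5, 375 in tumor 3, 500.0 in tumor 8 and 1091 in tumor 4. Col1a2 (chromosome 6 from 4504814 to 4541544) ran from 24.6 TPM in tumor 2 to 704 TPM in tumor 4, with a median of 162 TPM. Col1a1 (chromosome 11 from 94936224 to 94953042) ran from 11.8 to 599 TPM in the same tumors, with a median of 139 TPM. All 3 genes had their lowest value in tumor 2 and their highest in tumor 4, and all 3 were at 263 TPM or more in tumors 3, 4 and 8.

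Type V collagen, which starts and limits type I fibrils, was lower. Col5a2 had 11.8 TPM in tumor 9, a median of 59.1 TPM and 165 TPM in tumor 4. Col5a1 had 2.40 TPM in tumor 2, a median of 16.9 TPM and 167 TPM in tumor 8. Col5a3 (chromosome 9 from 20770050 to 20815067), a type V chain of narrow tissue range, had between 1.70 and 49.4 TPM in 11 tumors, with 629 TPM in tumor 8. That tumor alone sets the mean of Col5a3, 79.5 ± 206 TPM. The fibril chain Col27a1 was likewise highest in tumor 8, with 102 TPM, against 1.90 to 21.7 TPM in the others, and Col24a1 exceeded 1 TPM in tumors 8 and 9 only (4.60 and 3.81 TPM).

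The 250 bases before the RefSeq start are shown for 3 fibrillar genes with different patterns: Col3a1, highest in tumor 4; Col5a3, highest in tumor 8; and Col11a1, the cartilage-type chain described next, near 0 in tumor 8. They come from RefSeq on build GRCm38.p6, each 5′ to 3′ on the strand of its gene, with TATAAA and CCAAT, on either strand, in capitals.
Col3a1, chr1:45311288-45311537, plus strand: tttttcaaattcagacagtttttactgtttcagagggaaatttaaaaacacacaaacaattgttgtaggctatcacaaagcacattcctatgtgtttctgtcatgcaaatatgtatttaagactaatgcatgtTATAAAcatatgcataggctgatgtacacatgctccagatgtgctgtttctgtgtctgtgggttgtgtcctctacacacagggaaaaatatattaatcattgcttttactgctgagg
Col5a3, chr9:20815068-20815317, minus strand: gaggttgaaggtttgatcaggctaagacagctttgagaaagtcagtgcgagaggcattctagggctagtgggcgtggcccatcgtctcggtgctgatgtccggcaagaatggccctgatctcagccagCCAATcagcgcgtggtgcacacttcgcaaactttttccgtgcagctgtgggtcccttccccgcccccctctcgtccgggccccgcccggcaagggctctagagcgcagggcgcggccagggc
Col11a1, chr3:114030290-114030539, plus strand: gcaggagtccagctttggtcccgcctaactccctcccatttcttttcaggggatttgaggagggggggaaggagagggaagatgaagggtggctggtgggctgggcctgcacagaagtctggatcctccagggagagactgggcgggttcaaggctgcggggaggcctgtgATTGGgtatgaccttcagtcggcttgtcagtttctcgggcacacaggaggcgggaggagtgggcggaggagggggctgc
The Col3a1 window holds TATAAA 117 bases before the start, the Col5a3 window holds CCAAT 122 bases before it, and the Col11a1 window holds the reverse complement of CCAAT 79 bases before it. Of 38 such windows for 35 of the 44 genes, 5 (13.2%) held TATAAA and 13 (34.2%) held CCAAT, beside 12.4% and 33.9% of all 32851 windows. GGGCGG, a GC box motif, was in 22 of the 38 windows (57.9%) and in 32.7% of all windows. ACAAAG and ACAATG, letters that SOX proteins can bind, were in 4 (10.5%) and 1 (2.63%) of the 38 windows, beside 16.5% and 10.7% of all. Both strands were searched, and these shares are descriptions of letters that were not tested.

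Cartilage-type collagens were present in most of these mammary tumors. Col9a3 (chromosome 2 from 180597790 to 180622189), a chain of type IX collagen that decorates type II fibrils, had 398 TPM in tumor 1, 284 in tumor 3, 205 in tumor 4, 171 in tumor 7, 158 in tumor 12, 142 in tumor 10, 141 in tumor 5, 129 in tumor 11, 88.2 in tumor 9, 55.8 in tumor 6, 1.80 in tumor 8 and 1.68 in tumor 2. It was thus at 55.8 TPM or more in 10 tumors and under 2 TPM in tumors 2 and 8. Col9a2 had the same 2 tumors at 0, a median of 77.3 TPM and 162 TPM in tumor 1.

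Col9a1 was listed at 0 in tumors 2 and 8 too, with a median of 31.0 TPM and 184 TPM in tumor 11. Unlike the other type IX chains it was also low in tumor 9, with 0.245 TPM, and in tumors 3 and 4, with 1.89 and 1.66 TPM. Col2a1, the main fibril chain of cartilage, was 140 TPM in tumor 1, 32.7 TPM in tumor 11 and 16.3 TPM in tumor 5, with 0 in tumors 8 and 9, 0.155 TPM in tumor 2 and 2.34 to 8.82 TPM in the other 6. Col11a1, which joins type II fibrils, had 63.4 TPM in tumor 1, a median of 25.1 TPM, and under 1 TPM in tumors 2, 8 and 9. Its partner Col11a2 ran from 0.787 TPM in tumor 8 to 33.8 TPM in tumor 1.

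Other cartilage and bone genes had mixed levels. Matn1 did not exceed 0.079 TPM in any tumor and Acan, the large cartilage proteoglycan, did not exceed 2.09 TPM, whereas Comp reached 22.3 TPM and Alpl 61.4 TPM in tumor 5. Over 7 cartilage and bone markers the sum was 4.72 to 104 TPM, with Hapln1 giving 102 TPM of it in tumor 2, and Alpl and Comp most of it in the tumors other than 2, 8 and 9. Sox10, a transcription factor of Schwann and other neural crest cells that mammary epithelial cells also express, had 160 to 536 TPM in 9 tumors. Its level was 0.104, 0.358 and 8.97 TPM in tumors 2, 8 and 9, those with the lowest Col2a1 and Col11a1. Its part in these levels was not tested.

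Type IV collagen, the sheet of the basement membrane, was represented by 4 of its 6 chains. Col4a1 (chromosome 8 from 11198423 to 11312826, minus strand) had 19.3 TPM in tumor 2, a median of 182 TPM and 420 TPM in tumor 1. Col4a2 (chromosome 8 from 11312805 to 11449287, plus strand) had 12.0 TPM in tumor 2, a median of 123 TPM and 278 TPM in tumor 8. The pair followed a different order from type I collagen: tumor 4, highest for Col1a1, had 151 TPM of Col4a1, under the median.

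Col4a5 and Col4a6, on the X chromosome, were highest in tumors 1, 5, 11 and 12, with 75.8 to 131 TPM and 93.2 to 120 TPM. They were lowest in tumor 9, with 3.47 and 0.773 TPM, and next lowest in tumor 8, with 6.95 and 2.25 TPM, although Col4a1 was at 387 TPM there. Col4a3 and Col4a4, the chains of the kidney and lung basement membrane, stayed at or under 0.166 and 0.322 TPM.

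Col18a1, a basement membrane collagen whose end fragment is endostatin, was the second most abundant collagen, with 217 ± 157 TPM. It had 6.02 TPM in tumor 2, 22.3 TPM in tumor 9, 101 TPM in tumor 8 and 123 to 407 TPM in the other 9. Col7a1, the chain of anchoring fibrils, ran from 0.717 TPM in tumor 2 to 77.0 TPM in tumor 8, with a median of 23.6 TPM. Col15a1 ran from 3.89 TPM in tumor 2 to 52.2 TPM in tumor 4.

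Type VI collagen, whose 3 main chains form beaded filaments around cells, was highest in tumor 8 for all 3. Col6a1 had 11.4 TPM in tumor 2, a median of 64.1 TPM and 493 TPM in tumor 8. Col6a2 ran from 9.64 to 236 TPM in the same tumors, and Col6a3 from 3.68 TPM in tumor 9 to 315 TPM in tumor 8. The later-found chains Col6a4, Col6a5 and Col6a6 did not exceed 1.40, 1.23 and 0.226 TPM.

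The remaining collagens were of several classes. Among those that bind fibrils, Col16a1 ran from 1.64 TPM in tumor 2 to 220 TPM in tumor 1, Col12a1 from 2.12 TPM in tumor 2 to 207 TPM in tumor 8, and Col14a1 from 2.52 to 26.6 TPM. Col8a1, a chain of vessel and cornea networks, had 4.31 TPM in tumor 2, a median of 45.4 TPM and 185 TPM in tumor 1, whereas its partner Col8a2 did not exceed 12.2 TPM. Col10a1, the collagen of hypertrophic cartilage, did not exceed 11.6 TPM.

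The 4 membrane-spanning collagens were low. Col17a1, which ties basal epithelial cells to the basement membrane, did not exceed 3.10 TPM and Col13a1 did not exceed 3.76 TPM. Col25a1 ran from 0.0423 TPM in tumor 2 to 26.6 TPM in tumor 12. Col23a1 had 22.9 TPM in tumor 8 and at most 3.08 TPM elsewhere. Col19a1 was listed at 0 in 10 tumors and reached 0.0862 TPM in tumor 5, but had 5.48 TPM in tumor 2, the tumor with the B lymphocyte markers. Col20a1, Col22a1, Col26a1 and Col28a1 did not exceed 5.60, 0.499, 0.669 and 4.37 TPM.

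Tumor 8 combined both extremes. Of the 35 genes with a mean of 1 TPM or more it was the highest tumor for 12 and the lowest for 6, 4 of these tied with another tumor at 0, where it was highest for 12% and lowest for 10.4% of all 16802 genes with such a mean. Of the 12, Col23a1 and Col24a1 had a mean under 1 TPM without tumor 8, so 10 do not depend on it for being counted. Tumor 1 was the highest for 10 collagens (6.2% of all genes), tumor 4 for 6 (2.52%), and tumor 2 was the lowest for 22 (32.6%), 2 of them tied. Taken as (TPM + 1) over the median of the 10 tumors other than 2 and 8, tumor 8 had 50.1-fold more Col5a3, 25.7-fold more Col27a1, 18.1-fold more Col23a1, 11.2-fold more Col6a3, 9.37-fold more Col5a1 and 9.23-fold more Col12a1. Type I collagen was less raised there, 2.44-fold for Col1a2 and 1.93-fold for Col1a1. With a single tumor of this kind, there is no replicate check of these folds.

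**Figure D3:**
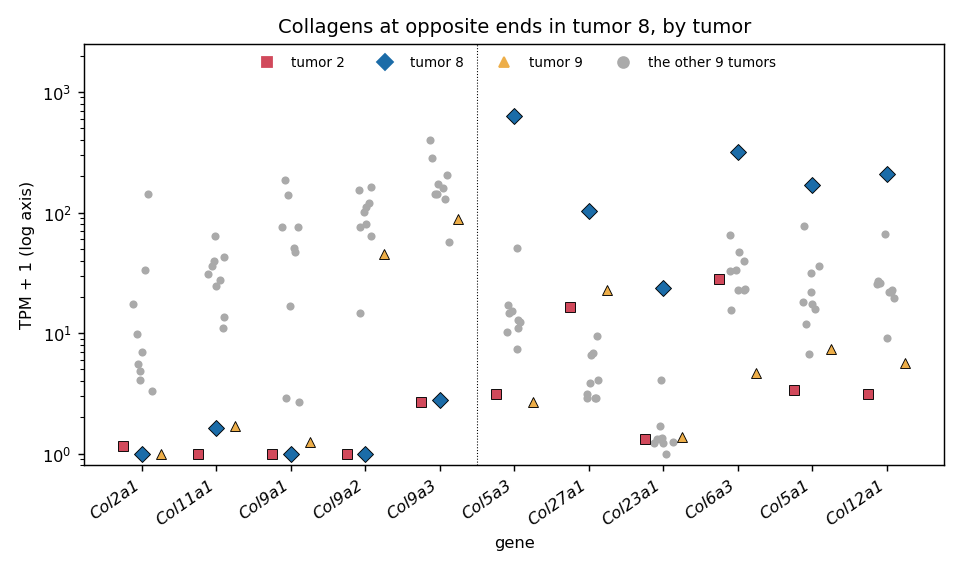
Points give TPM + 1 on a log axis for 12 tumors and 11 genes picked after their values were seen: 5 cartilage-type chains on the left and 6 chains raised in tumor 8 on the right. Tumor 8 (blue diamonds) is at or near the bottom for the first 5, with Col9a3 at 1.80 TPM, and at the top for the other 6, with Col5a3 at 629 TPM.

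The next comparison asked which collagens differed between mice beyond the spread of tumors within a mouse. limma, fitted to log2(TPM + 1) of all genes, called 29 of 35 collagens tested (adjusted p under 0.05), where 42.9% of the 16779 genes tested were called. Col23a1 and Col28a1 reached the limit of a mean of 1 TPM only through the mouse in which they were highest, so their calls follow in part from that limit, and of the other 33 collagens 27 were called. Col9a3, Col9a2 and Col4a6 had the smallest adjusted p, 0.0014 each, with a within-mouse SD of 0.23, 0.28 and 0.17 on the log2 scale. Col2a1, Col10a1, Col14a1, Col13a1, Col17a1 and Col25a1 did not pass, with a within-mouse SD from 0.31 for Col13a1 to 1.37 for Col2a1. Col9a1 passed with an SD of 1.54 (limma adjusted p = 0.0377). The within-mouse spread rests on 2 mice and 3 degrees of freedom. The other 7 mice gave 1 tumor each, so for them a difference between mice cannot be told from a difference between single tumors. With no filter on low values, 16 of 44 collagens and 29.1% of all genes were called. The count was 19 without tumor 3, without tumor 4 or without tumor 12, where 12.3%, 13% and 31.1% of all genes tested were called. It was 18 without tumors 2 and 8, with 20.8% of all genes called, and 6 without tumors 2, 8 and 9, with 2.68% called.

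Tumors of the same mouse were also set side by side. Over the 35 genes the median fold between the highest and lowest (TPM + 1) was 1.38 between tumors 3 and 4 and 1.45 among tumors 10 to 12, beside 1.15 and 1.40 over all 16802 genes with a mean of 1 TPM or more. Over all 12 tumors it was 29.5 (3.73 over all genes), without tumors 2 and 8 it was 12.9 (2.74), and without tumors 2, 8 and 9 it was 6.88 (2.24), and such a range also widens with the number of tumors. Tumor 4 had more than 2-fold more than tumor 3 for 10 genes: Col1a1, Col1a2, Col3a1, Col5a1, Col5a2, Col5a3, Col6a1, Col6a2, Col12a1 and Col23a1. The fibroblast markers summed to 426 TPM in tumor 4 and 205 TPM in tumor 3. The adipocyte markers summed to 351 and 129.5 TPM, the B lymphocyte markers to 120 and 21.3 TPM and the macrophage markers to 979 and 583 TPM in the same order, whereas the epithelial markers were lower in tumor 4 (4811 against 6333 TPM). Their part was not tested.

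Among tumors 10 to 12, 12 of the collagens exceeded 2-fold, and 0 of the 35 exceeded it in both mice. Of the 16802 genes, 3.9% exceeded 2-fold between tumors 3 and 4, 16.9% among tumors 10 to 12 and 1.77% in both, and the difference from the collagens was not tested. The collagens with the widest range among tumors 10 to 12 were Col9a1, with 15.9, 184 and 138 TPM in tumors 10, 11 and 12 (11.0-fold), and Col2a1, with 2.34, 32.7 and 8.82 TPM (10.1-fold). Col3a1, Col1a1 and Col1a2 stayed within 1.23-fold, 1.41-fold and 1.34-fold in these 3 tumors.

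The collagens were then set against fibroblast RNA, since fibroblasts are the main source of fibrillar collagen. The fibroblast marker level, the median log2(TPM + 1) of Pdgfra, Pdgfrb, Dpt, Fap, Thy1, Fbln1, Mfap5 and Pi16, ran from 1.01 in the mouse of tumor 2 to 5.28 in that of tumor 8. The markers did not all peak together: Pdgfra, Pdgfrb, Thy1 and Fbln1 were highest in tumor 8, with 111, 107, 161 and 68.6 TPM. Dpt, Fap, Mfap5 and Pi16 were highest in tumor 4, with 73.0, 12.7, 98.2 and 27.6 TPM.

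Over 9 mice, 5 of the 35 collagens tested rose with this level (limma slope, adjusted p under 0.05), where 0.244% of the 16794 genes tested did. The slope is the change in log2(TPM + 1) per unit of marker level. It was 1.02 ± 0.11 (SE) for Col1a2, 1.02 ± 0.12 for Col3a1, 1.11 ± 0.14 for Col1a1, 1.25 ± 0.14 for Col5a1 and 1.23 ± 0.18 for Col12a1, with adjusted p of 0.0090, 0.0098, 0.0122, 0.0098 and 0.0302 in limma. Of these 5, 4 are fibrillar chains, and Col12a1 coats type I fibrils. The next chains, Col6a2, Col7a1, Col6a1 and Col5a2, had slopes of 0.99, 1.23, 1.16 and 0.75 and did not pass (limma adjusted p of 0.0741, 0.0767, 0.0830 and 0.108). The steepest slopes, 1.49 ± 0.32 for Col16a1 and 1.45 ± 0.33 for Col5a3, had wider errors and did not pass either (limma adjusted p of 0.127 and 0.149).

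No collagen fell with the level, nor did any other gene (0% called by limma); at an unadjusted p under 0.05, 18 collagens rose and 0 fell, as against 1502 and 657 of all genes. The median slope was 0.50 over the 35 collagens and 0.03 over all genes, and 30 of the 35 slopes were above 0, as were 55.1% of all slopes. Col23a1 and Col24a1 entered this test only through tumor 8, whose mouse had the highest level. Their slopes of 0.77 and 0.32 thus follow in part from the limit of a mean of 1 TPM. Both are among the 30, and Col23a1 is among the 18. The 4 type IV chains tested had slopes of -0.30 for Col4a6, -0.18 for Col4a5, 0.69 for Col4a1 and 0.70 for Col4a2, and the chains that lie next to the basement membrane had 0.49 for Col15a1, 0.72 for Col18a1 and 1.23 for Col7a1. None of these 7 passed in limma, and at an unadjusted p under 0.05, 4 of them rose (Col4a1, Col4a2, Col7a1 and Col15a1). Without tumor 2 the slopes were 0.27 for Col4a1, 0.27 for Col4a2, 0.18 for Col15a1 and -0.07 for Col18a1. In the same fit they were 1.06 for Col7a1, -0.53 for Col4a5 and -0.60 for Col4a6. Slopes of the cartilage-type chains had wide errors, such as 0.27 ± 0.56 for Col2a1, 0.20 ± 0.65 for Col9a3 and -0.19 ± 0.72 for Col9a1.

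How many collagens passed depended on single mice. The count was 2 without the mouse of tumor 2 (Col3a1 and Col5a1), 3 without the mouse of tumors 3 and 4 (Col1a2, Col3a1 and Col5a1) and 3 without the mouse of tumor 8 (Col1a1, Col1a2 and Col3a1). Of all genes tested, 0.0779%, 0.0954% and 0.101% rose in these 3 fits. Col12a1 lost its call on leaving out any of 7 of the 9 mice. Without tumors 2 and 8, limma called 0 of 16598 genes, while at an unadjusted p under 0.05, 15 of 34 collagens rose and 0 fell, beside 634 and 233 of all genes. The slopes in those 7 mice were 1.19 for Col1a2, 1.42 for Col3a1, 1.25 for Col1a1, 1.13 for Col5a1, 0.86 for Col12a1 and 0.05 for Col4a1.

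By exact permutation of the 9 mice, with adjustment over all 16794 genes, Pearson's r with the marker level was 0.96 for Col1a2 (p = 3.58e-05, adjusted p = 0.0463) and 0.96 for Col5a1 (p = 2.2e-05, adjusted p = 0.0370). For Col3a1 and Col1a1 r was 0.95 and 0.94, with exact permutation adjusted p of 0.0748 and 0.0720. Spearman's rho was 0.97, 0.98, 0.97 and 0.97 for Col1a2, Col5a1, Col3a1 and Col1a1 (exact permutation, unadjusted p of 0.000165, 4.96e-05, 0.000165 and 0.000165, and adjusted p of 0.0841 each). After leaving out the 2 mice farthest from the median level, those of tumors 2 and 8, r was 0.95, 0.91, 0.98 and 0.95 in the same order. For Col4a1, r was 0.69 over 9 mice (exact permutation p = 0.0381, adjusted p = 0.400) and 0.06 without those 2 mice, so it rested on them.

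Markers of other cells were also set on this level. Among the pericyte, endothelial, myoepithelial, epithelial, adipocyte, skeletal muscle, cartilage and bone, B lymphocyte and macrophage markers, 1 gene passed, the macrophage receptor Mrc1 (limma slope 0.83, adjusted p = 0.0439), and its call was lost on leaving out any mouse but that of tumor 2. At an unadjusted p under 0.05, 3 of 6 endothelial and 3 of 5 macrophage markers rose, 4 of 5 B lymphocyte markers and 1 of 4 cartilage and bone markers fell, and 0 markers of the other 5 lists passed in either direction, beside 1502 rising and 657 falling of all 16794 genes. The cartilage and bone gene that fell, Hapln1, had 102 TPM in tumor 2 and at most 0.288 TPM elsewhere. It reached the limit of a mean of 1 TPM only through that tumor, so its fall follows from that limit and is no finding. The slopes of the 5 B lymphocyte markers, whose highest sum was in tumor 2, had a median of -1.33, and without tumor 2 they lay between -0.32 and -0.13. Of the markers that rose, endothelial Cdh5 had a slope of 0.47, and 0.18 without tumor 2. Macrophage C1qa had 0.50, and 0.06 without tumor 2, whereas Mrc1 kept its call there. The macrophage markers summed to 156 TPM in tumor 2 and 1658 TPM in tumor 8, and the endothelial markers to 51.8 and 174 TPM in the same tumors, the lowest and highest of the series. Their part in the collagen slopes was not tested.

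**Figure D4:**
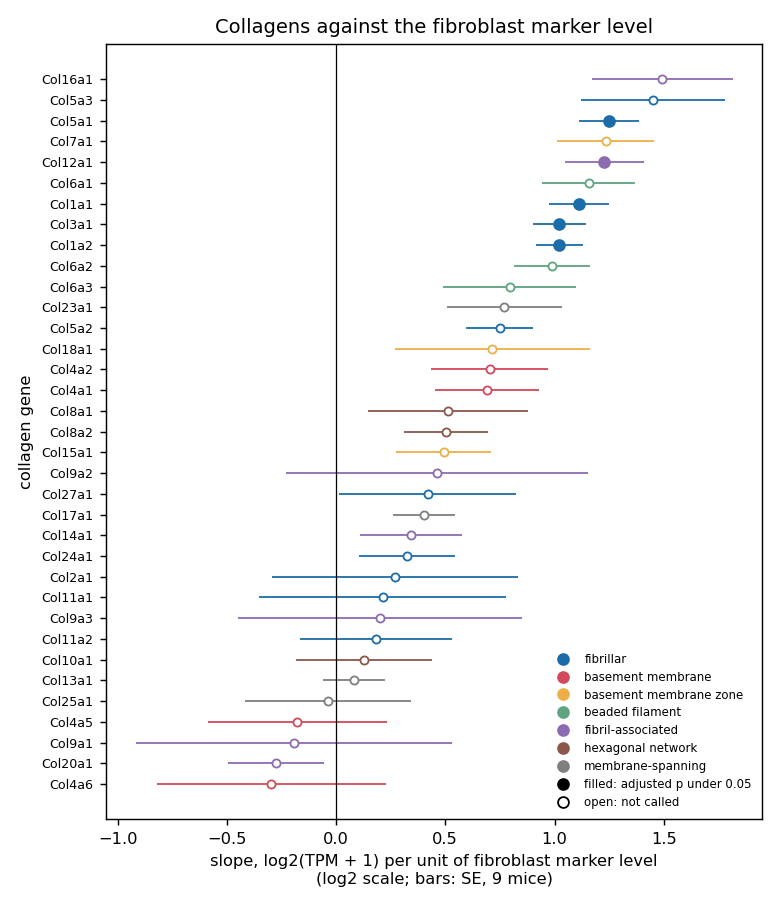
Points give the slope of each of 35 collagens on the fibroblast marker level over 9 mice, on the log2 scale, with the SE as bars, coloured by class and filled where limma's adjusted p was under 0.05. The 5 filled points lie between 1.02 and 1.25, and the bars of the cartilage-type chains Col2a1, Col11a1, Col9a1, Col9a2 and Col9a3 cross 0.

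Genes were compared within each mouse in 10 pairs, 9 of them chains of the same collagen type and 1 setting type I against type IV, by exact sign-flip permutation tests whose smallest two-sided p is 0.0039. Col1a2 exceeded Col1a1 in every mouse: Col1a1 minus Col1a2 was -0.40 ± 0.26 (log2 of TPM + 1, mean ± SD over 9 mice, exact permutation p = 0.0039, adjusted p = 0.0098 over 10 pairs). The ratio of Col1a1 to Col1a2 TPM was between 0.677 and 0.883 in 11 tumors and 0.481 in tumor 2. The type I trimer holds more α1 than α2 chain, and these are levels of RNA, estimated by the authors from each gene's length.

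Col4a1 and Col4a2 lie head to head on chromosome 8 with starts 21 bases apart. Col4a1 was higher in all 12 tumors, by a TPM ratio of 1.22 to 2.16, and in all 9 mice, with a difference of 0.58 ± 0.25 (exact permutation p = 0.0039, adjusted p = 0.0098). Col4a5 and Col4a6, head to head with starts 1309 bases apart, differed by 0.42 ± 0.64 with 6 of 9 mice positive (exact permutation p = 0.0977, adjusted p = 0.108). Col4a3 and Col4a4, 72 bases apart, were both too low to compare, at -0.05 ± 0.10 (exact permutation p = 0.168, adjusted p = 0.168).

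In type VI, Col6a1 exceeded Col6a2 in all 9 mice, by 0.46 ± 0.35 (exact permutation p = 0.0039, adjusted p = 0.0098), with a TPM ratio of 1.01 to 2.09. Col6a1 exceeded Col6a3 in 8 of 9 mice, by 1.13 ± 1.06 (exact permutation p = 0.0195, adjusted p = 0.0326), the exception being tumor 2, where the TPM ratio was 0.424. That call was lost on leaving out any mouse other than that of tumor 2. Col5a1 was below Col5a2 in 8 of 9 mice, by -1.25 ± 0.87 (exact permutation p = 0.0078, adjusted p = 0.0156), and tumor 8 was the exception with a TPM ratio of 1.50.

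Col8a1 exceeded Col8a2 in all 9 mice, by 3.48 ± 1.30 (exact permutation p = 0.0039, adjusted p = 0.0098). Col11a1 minus Col11a2 was 1.38 ± 2.05 (exact permutation p = 0.0859, adjusted p = 0.107), within the spread between mice, and passed at 1.66 when each tumor was a unit. Col1a1 minus Col4a1, interstitial against basement membrane, was -0.64 ± 0.97 (exact permutation p = 0.0781, adjusted p = 0.107). It was below 0 in 8 mice, with tumors 3 and 4 the exception, and without that mouse it was -0.91 and passed.

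**Figure D5:**
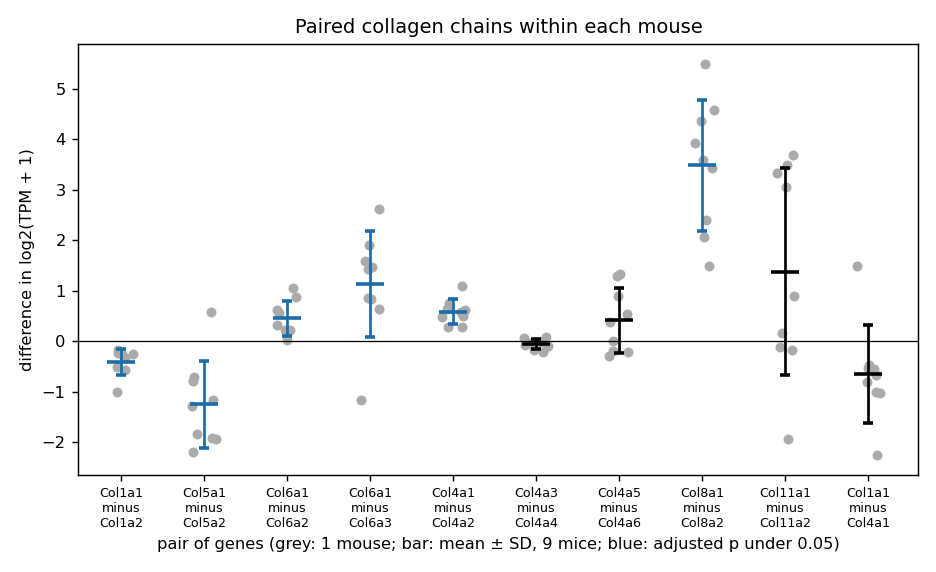
Grey points give the difference in log2(TPM + 1) between 2 collagen genes in each of 9 mice, and bars the mean ± SD, blue where the adjusted p was under 0.05. Col1a1 minus Col1a2 lies below 0 in all 9 mice, Col4a1 minus Col4a2 and Col6a1 minus Col6a2 above 0 in all 9, and Col11a1 minus Col11a2 spreads widely (SD of 2.05).

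The genes that make, export and link collagen were followed on the same marker level. Of 16 tested genes for chain modification and folding, 1 rose, beside 0.244% of all genes: P4ha3, a proline hydroxylase subunit, with a slope of 0.70 ± 0.09 (limma adjusted p = 0.0148). At an unadjusted p under 0.05, 12 of the 16 rose and 0 fell, beside 1502 rising and 657 falling of all 16794 genes. All 16 slopes were above 0, as were 55.1% of all slopes, with a median of 0.62 against 0.03 over all genes. The adjusted p of P4ha3 was 0.118 without tumor 2, 0.0788 without the mouse of tumors 3 and 4, 0.115 without tumor 8 and 0.0544 without the mouse of tumors 10 to 12. Its slope was 0.67 without tumor 2 and 0.71 without tumor 8. Serpinh1, the collagen chaperone HSP47, had 38.6 TPM in tumor 9, 66.4 TPM in tumor 2 and 830 TPM in tumor 8, with a slope of 0.73 ± 0.27 that did not pass (limma adjusted p = 0.322). Of 9 tested genes for secretion and propeptide removal, limma called 0, with 5 rising at an unadjusted p under 0.05 and a median slope of 0.62.

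Of 10 genes for crosslinking and fibril partners, 5 rose: Lum, Dcn and Bgn, small proteoglycans that bind fibrils, Loxl1, a crosslinking oxidase, and Sparc, a collagen-binding protein, where 0.244% of all genes tested rose. Their slopes were 1.54, 1.96, 0.82, 1.42 and 0.87 (limma adjusted p of 0.0020, 0.0148, 0.0098, 0.0098 and 0.0451), and the median of the 10 was 0.85. Lum and Loxl1 kept their calls on leaving out each mouse. Bgn lost its call without the mouse of tumor 2 (limma adjusted p = 0.0888) or of tumors 3 and 4 (0.0501), Dcn without that of tumor 2 (0.0772), tumors 3 and 4 (0.0501) or tumor 8 (0.105), and Sparc without any of 7 of the 9 mice, with 0.281 for that of tumor 2. Without tumors 2 and 8 together 0 of the 5 passed, as for all genes, and their slopes were 1.46 for Lum, 1.70 for Dcn, 0.95 for Bgn, 1.34 for Loxl1 and 0.75 for Sparc. Dcn had 2.34 TPM in tumor 2, 285 TPM in tumor 4 and 1732 TPM in tumor 8. Of 9 tested receptors, Mrc2, which takes up collagen for breakdown, rose with a slope of 1.20 ± 0.18 (limma adjusted p = 0.0365). Its slope was 1.35 without tumor 2 and 0.94 without tumor 8 (limma adjusted p of 0.118 and 0.154), and the call was lost on leaving out any mouse but that of tumor 9. Ddr1, a receptor kinase of epithelial cells, had a slope of 0.88 ± 0.49 (limma adjusted p = 0.472). Ddr1 had 0.295 TPM in tumor 2, 26.7 TPM in tumor 8 and 27.8 TPM in tumor 9, but 83.4 to 211 TPM in the others.

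The genes most like 3 collagens over the 9 mice were listed by Pearson's r of log2(TPM + 1), as a description. For Col1a1 they were Ccdc80, Bgn, Cdc42ep5, Gpx7 and Fam198b, with r from 0.97 to 0.99. For Col4a1 they were Anxa2, 1700109K24Rik, Cd276, Paip1 and Anxa5, with r from 0.98 to 0.99. For Col17a1 they were Tpm3, Rps19-ps5, Atp6v0a2, Gm44103 and Ptges, with r from 0.91 to 0.98. Col17a1, Rps19-ps5 and Gm44103 were low, with means of 1.43, 1.26 and 2.80 TPM, and Col17a1 did not pass the test between mice. These values share the tumors that stand apart, so tumor 2 lies at the low end for Col1a1 and Col4a1 alike.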

How the data were processed

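The authors trimmed paired-end reads with fastq-mcf, aligned them to GRCm38 with HISAT2, quantified with StringTie (version 2.1.6 per the labels) and deposited TPM values, 1 per Ensembl gene and tumor, with no pooling. How transcripts were summed per gene is not given in the sources used here. TPM is relative to all other RNA of a tumor.

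From these, log2(TPM + 1) was computed. Genes with a mean of 1 TPM or more entered limma 3.58.1 (R 4.3.3), with a mean trend and Benjamini-Hochberg adjustment over all genes tested: an F-test of mouse over 12 tumors, and a slope on fibroblast markers over 9 mice, markers left out. Pairs and correlations used exact permutation (two-sided; Python 3.11.15, numpy 2.4.6). Alternatives were a pseudocount of 0.1, other filters, no trend, TPM without mitochondrial genes, tumors as units, the mean of the markers, and leaving out each tumor or mouse. Scripts were tested on simulated data. Positions are from GENCODE vM21 on GRCm38, which placed all 44 genes.

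The genes, lists and tests were chosen with earlier results of these data known. Values are given for the 2 leading genes of each class, both genes of each pair, and genes whose highest mouse was 8 times the median mouse or more at 5 TPM or more. The sample descriptions mark the tumors of the same mouse apart (4L and 5L; 2R, 4R and 5L) without saying what the marks stand for. The result of 1 marker list is not reported here.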

Additional observations from a re-analysis of the deposited data

Results flagged for a closer look

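Of 50 values tested over 9 mice (the 39 collagens with 1 TPM or more in any tumor, the 10 pair differences and the collagen share of TPM), 6 had an extreme mouse whose gap to the next exceeded Dixon's critical share of the range, and chance gives about 1 in 20. On the log2(TPM + 1) scale, the mouse of tumor 8 had 9.30 for Col5a3, with the next at 4.77, and 4.58 for Col23a1, with the next at 1.39. The mouse of tumor 2 had 2.70 for Col19a1, with the next at 0.12, and -0.997 for Col1a1 minus Col1a2, with the next at -0.56. Col19a1 was tested only through tumor 2, with at most 0.0862 TPM elsewhere, so its gap follows from that choice and is no finding. Col23a1 had at most 3.08 TPM outside tumor 8, and its mean over mice was 2.95 TPM with that tumor and 0.461 TPM without it. The mouse of tumors 3 and 4 had 2.40 for Col28a1, with the next at 1.04, and 1.49 for Col1a1 minus Col4a1, with the next at -0.47. Tumors 3 and 4 had the highest sums of the skeletal muscle markers, 364 and 245 TPM, against 2.89 to 62.9 TPM in the others, and their part in these values was not tested.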

How the results depend on the processing

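Leaving out tumors 2 and 8, or 2, 8 and 9, was chosen after seeing the data. The count of collagens that differed between mice (29) was 16 with no filter on low values (29.1% of all genes called, against 42.9%), 18 without tumors 2 and 8 (20.8%), 6 without tumors 2, 8 and 9 (2.68%), and 19 to 34 on leaving out each tumor. The count that rose with the fibroblast markers (5) was 9 with each tumor as a unit (0.877% of all genes, against 0.244%), 0 without tumors 2 and 8 (0%), 1 without tumors 2, 8 and 9 (Col3a1; 0.0307%), and 2 to 7 on leaving out each mouse. No collagen fell in any of the 18 alternatives run. The cause of these moves was not tested, and leaving out tumors or mice also lowers the number of samples. Col11a1 minus Col11a2 was 1.66 and passed with each tumor as a unit. On leaving out each mouse, Col6a1 minus Col6a3 lay between 0.94 and 1.42 and lost its call in 8 of 9 cases, and Col1a1 minus Col4a1 lay between -0.91 and -0.44 and passed once. The other 7 pairs kept their direction and call in every alternative run. The mean collagen share, which was not tested, lay between 0.1946% and 0.2485% on leaving out each mouse. Depth is unknown, so values near 0 cannot be told from absence.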
